A study of Mus musculus with 4 samples.

Results

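The expression of 10 genes that control the step from G1 into S phase was examined in a mouse model of acute myeloid leukemia (AML). They are the D-type cyclin genes Ccnd1, Ccnd2 and Ccnd3, the kinase genes Cdk4 and Cdk6, the pocket protein genes Rb1 and Rbl1, and the activator E2F genes E2f1, E2f2 and E2f3. The genes were chosen by symbol for their place in the pathway, and the rule used no measured value, though earlier results of these data were known when they were chosen. All 10 were found among the 23552 genes of the deposited table, and all 10 passed the filter that kept 13736 genes for testing. That filter asked for a mean of at least 0.5 FPKM, where FPKM is the number of fragments scaled to exon length and library depth.

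RNA-Seq covered c-Kit+ leukemic cells from the bone marrow of moribund C57BL/6 mice, in 2 control and 2 SUV-OE libraries, all labelled as batch 2. Both groups had leukemia induced by the fusion oncogene MLL-AF9. The genotype label of control (replicates 3 and 4) was control-eGFP overexpression and that of SUV-OE (replicates 2 and 3) was Suv39h1-eGFP overexpression. Suv39h1 encodes an H3K9 methyltransferase. The study's methods used 8-week-old female mice and sublethally irradiated hosts, which keep blood-forming cells of their own, and the labels name enrichment for c-Kit and not for eGFP. The study describes these cells as P1 leukemic cells of moribund mice, and no source used here says whether the 2 libraries of a group came from separately transduced cells, so the p-values measure only the spread between these samples. Depth was alike, with a read total of 16873770 to 19453058 behind the scaling of the FPKM, as counted back from the FPKM of single reads. Reads recovered per gene summed to 19871930 to 23310657 in each library, which is more than that total.

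The labels were checked first. Suv39h1 itself stood at 12.4 FPKM in both controls against 75.3 and 81.2 FPKM in SUV-OE, which is a difference of 2.56 on the log2(FPKM + 1) scale (standard error 0.11, limma adjusted p = 0.00866). Transcripts of the vector and of the mouse's own gene cannot be told apart in these values. All 13 markers of c-Kit+ myeloid leukemia cells were detected in every library, and their summed FPKM was 3048 and 3186 in control against 2712 and 3372 in SUV-OE. Elane and Prtn3 made up most of each sum, with Elane at 1548 and 1527 FPKM in control against 1385 and 1825 in SUV-OE. The sums therefore say little about the other markers. The groups were separate above control for 5 of the 13 and below for 3, where 25.4% and 28.4% of all tested genes were.

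D-type cyclins are made in response to growth signals and bind CDK4 or CDK6. The active kinase phosphorylates the pocket proteins, which otherwise hold E2F transcription factors in a repressed state at the genes of DNA replication. RB can bring histone-modifying enzymes to E2F-bound promoters, and SUV39H1 is a known partner of RB. The D-type cyclins overlap in function in blood-forming tissue, and CDK6 is known as a kinase on which leukemia cells with MLL fusions depend.

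The 3 D-type cyclins share the short motif through which they bind pocket proteins, a leucine, any residue, a cysteine, any residue and a glutamate. The first 45 bases of each mouse coding sequence are shown because they hold this motif and because they show how far 3 genes with different levels resemble each other. The sequences are those of GENCODE M21 on mm10, 5′ to 3′, with the codons of the motif in capitals.
Ccnd1: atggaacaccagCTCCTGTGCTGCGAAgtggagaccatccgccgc
Ccnd2: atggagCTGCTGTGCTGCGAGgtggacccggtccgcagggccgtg
Ccnd3: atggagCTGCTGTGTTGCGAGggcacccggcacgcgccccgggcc
The motif began at codon 5 in Ccnd1 and at codon 3 in Ccnd2 and in Ccnd3, and it occurred 1 time in each of these stretches. The coding sequences were 888, 870 and 879 bases long for Ccnd1, Ccnd2 and Ccnd3. Aligned bases were identical at 67.5% of positions between Ccnd1 and Ccnd2, at 62.5% between Ccnd1 and Ccnd3 and at 68.4% between Ccnd2 and Ccnd3. No stretch of 50 bases was shared between the exons of any of the 55 pairs formed by the 10 genes and Rbl2.

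The genes fell into tiers of expression that were alike in all libraries. In control, Cdk4 and Cdk6 were the most highly expressed, followed by E2f1, Rbl1 and Ccnd3, then by E2f2, E2f3 and Rb1, and last by Ccnd2 and Ccnd1. Of the neighbours in this order, only E2f2 (7.42 and 9.94 FPKM) and E2f3 (7.29 and 8.31 FPKM) overlapped between the control libraries. The 2 lowest genes were the cyclins Ccnd2 and Ccnd1, both at about 1 FPKM or less in control. In SUV-OE, Cdk6 lay above Cdk4, and E2f2, at 8.39 and 10.02 FPKM, overlapped both E2f3 and Rb1. All other neighbours in the order kept separate ranges in SUV-OE.

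**Figure D1:**
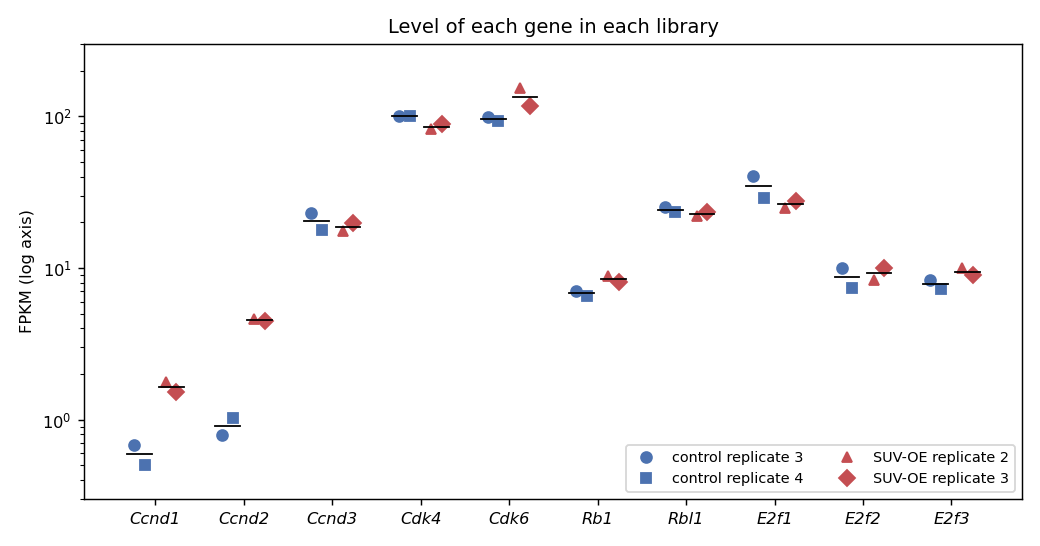
FPKM of each gene (log axis) in the 2 control libraries (blue) and the 2 SUV-OE libraries (red), with a bar at each group mean. Ccnd2 sits at 0.792 and 1.02 FPKM in control and at 4.62 and 4.45 in SUV-OE, the widest gap between groups on this axis among the 10 genes.

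Overexpression of Suv39h1 was compared with control for each gene on the log2(FPKM + 1) scale with limma, and p-values were adjusted over all 13736 genes by the Benjamini-Hochberg method. On this scale the differences of weakly expressed genes come out too small. Ccnd2 rose in SUV-OE, and it was the 1 of the 10 genes with an adjusted p-value under 0.05. Among all tested genes, 0.859% were called higher in SUV-OE and 0.43% were called lower. The SUV-OE libraries both exceeded the control libraries for 5 of the 10 genes (Ccnd1, Ccnd2, Cdk6, Rb1 and E2f3), where 25.4% of all tested genes did so. Both lay below for 2 genes (Cdk4 and E2f1), where 28.4% of all tested genes did so. Under quantile normalization the groups overlapped for both Cdk4 and E2f1. The median log2 fold change of the 10 genes was 0.17, beside -0.022 for all tested genes, and it was 0.032 without control replicate 4 and 0.30 without control replicate 3.

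**Figure D2:**
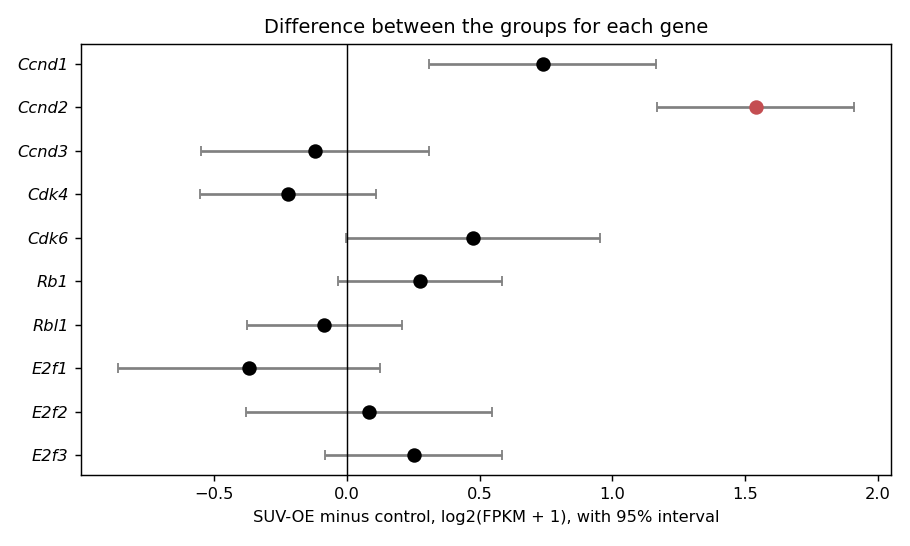
Log2 fold change of each gene (SUV-OE minus control, log2(FPKM + 1)) with its 95% interval from limma, and a line at 0. Ccnd2 (red, 1.54) was called, the interval of Ccnd1 also lies above 0, and the other 8 intervals include 0.

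Ccnd2 (ENSMUSG00000000184, chr6:127125162-127152193, minus strand, mm10), the cyclin D2 gene, is known to respond to cytokines in blood cells. Its FPKM was 0.792 and 1.02 in control against 4.62 and 4.45 in SUV-OE. These values rested on 145 and 162 reads in control and on 772 and 744 reads in SUV-OE. Neither SUV-OE library came near the control range. The mean was 0.906 ± 0.161 (SD, n = 2) in control and 4.54 ± 0.124 (SD, n = 2) in SUV-OE, a ratio of 5.005. The log2 fold change was 1.54 (standard error 0.14, 95% interval 1.17 to 1.91, limma adjusted p = 0.0284), and 0.939% of tested genes had a larger one. On the reads, limma-voom gave a log2 fold change of 2.43 (standard error 0.20, adjusted p = 0.00209), where 5.67% of 14275 genes were called higher and the median of all genes was 0.083.

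The call for Ccnd2 depended on having all 4 libraries and on the filter, while its direction did not. Without control replicate 3 the limma adjusted p was 0.189, without control replicate 4 it was 0.107, without SUV-OE replicate 2 it was 0.228 and without SUV-OE replicate 3 it was 0.221. The log2 fold change stayed between 1.45 and 1.63 in these fits, in which 0 genes of the whole table were called and 1146 to 3895 had an unadjusted p under 0.05. With no filter on low values, the limma adjusted p of Ccnd2 was 0.120. A pair of antisense genes overlaps Ccnd2 on the other strand, and the library kit did not mark strand. Their overlap with its exons covered 368 bases for 9330179D12Rik, which had 3 and 2 reads in control and 0 in both SUV-OE libraries, and 372 bases for Gm43126, for which no value was used here.

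Ccnd1 (ENSMUSG00000070348, chr7:144929931-144939925, minus strand, mm10) encodes cyclin D1, the D-type cyclin best known from solid tumors. Its FPKM was 0.677 and 0.503 in control against 1.78 and 1.52 in SUV-OE. The SUV-OE libraries both exceeded the control libraries, at low counts of 62 and 40 reads in control and 149 and 127 reads in SUV-OE. The exact 95% Poisson intervals, which cover counting error only, ran from 0.360 to 0.868 FPKM over the control libraries and from 1.26 to 2.09 FPKM over the SUV-OE libraries. The mean was 0.590 ± 0.123 (SD, n = 2) in control and 1.65 ± 0.188 (SD, n = 2) in SUV-OE, a ratio of 2.80. The log2 fold change of 0.74 (standard error 0.16, 95% interval 0.31 to 1.17) did not pass the test (limma adjusted p = 0.116). By limma-voom on the reads it did, with a log2 fold change of 1.57 (adjusted p = 0.0255).

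Reads of Ccnd1 also need care, because 1100 bases, or 23.4% of its exons, overlap LTO1 on the opposite strand. LTO1 had an FPKM of 3.24 and 3.25 in control against 3.07 and 3.38 in SUV-OE. Its groups overlapped and its log2 fold change was -0.0074.

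Ccnd3 (ENSMUSG00000034165, chr17:47505051-47599691, plus strand, mm10), the cyclin D3 gene, was the most highly expressed D-type cyclin gene in every library. Its FPKM was 23.2 and 17.7 in control against 17.5 and 19.7 in SUV-OE. The groups overlapped, and the control libraries were farther apart than the SUV-OE libraries. SUV-OE differed by a log2 fold change of -0.12 (standard error 0.17, 95% interval -0.55 to 0.31, limma adjusted p = 0.716), and it was 0.064 without control replicate 3. An end of Ccnd3 shares 361 exon bases with Bysl on the other strand, at an FPKM of 18.9 and 13.4 in control against 9.42 and 11.1 in SUV-OE.

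Ccnd2 and Ccnd1 made up a larger part of the D-type cyclins in SUV-OE and Ccnd3 a smaller part, while the sum of all 3 overlapped between groups. The summed FPKM of the 3 cyclins was 24.6 and 19.3 in control against 23.9 and 25.7 in SUV-OE. Ccnd2 made up 3.21% and 5.30% of this sum in control against 19.3% and 17.3% in SUV-OE, a difference of 14.1 percentage points. Ccnd1 made up 2.75% and 2.61% in control against 7.45% and 5.91% in SUV-OE. Ccnd3 made up 94.0% and 92.1% in control against 73.2% and 76.8% in SUV-OE. All 3 shares separated the groups, with a two-sided exact permutation p of 0.333 each, which is the smallest that 2 libraries against 2 can give. The FPKM of Ccnd3 was thus 29.3 and 17.4 times that of Ccnd2 in control against 3.79 and 4.43 times in SUV-OE.

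**Figure D3:**
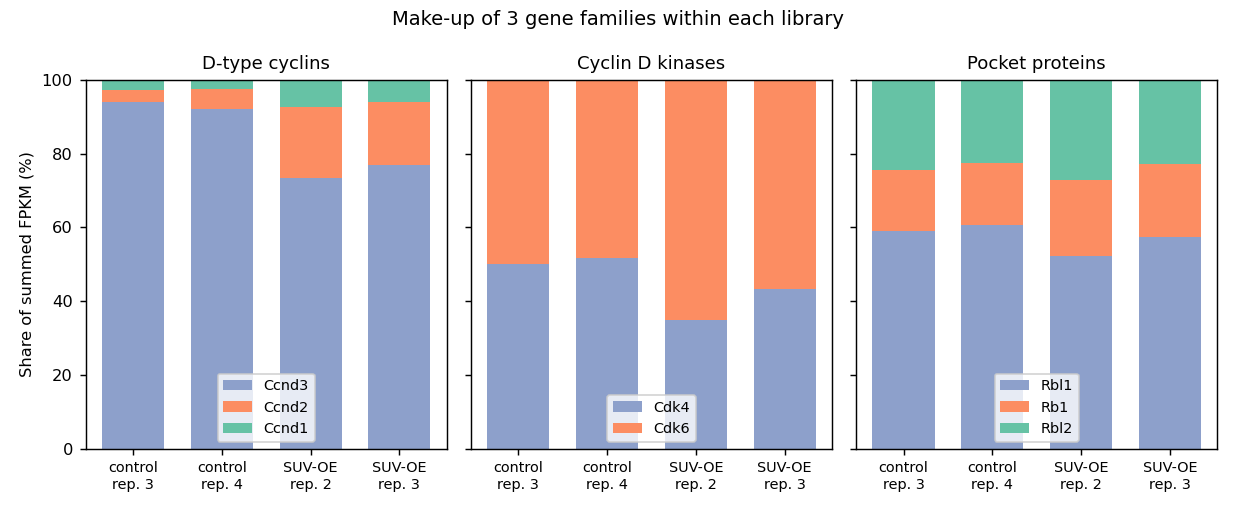
Share of summed FPKM (%) within each library for the D-type cyclins, for Cdk4 and Cdk6, and for the pocket proteins. Ccnd2 takes 3.21% and 5.30% of the D-type cyclin sum in control against 19.3% and 17.3% in SUV-OE, and Cdk6 takes the larger share of its pair in both SUV-OE libraries.

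The kinase genes were expressed far above the cyclin genes, and they differed from control in opposite directions without passing the test. Cdk6 (ENSMUSG00000040274, chr5:3341485-3531008, plus strand, mm10) was at 99.4 and 92.8 FPKM in control against 154 and 116 in SUV-OE. Both SUV-OE libraries lay above control, and SUV-OE replicate 2 was the highest of the 4. The mean was 96.1 ± 4.70 (SD, n = 2) in control and 135 ± 26.4 (SD, n = 2) in SUV-OE. In log2 terms the difference was 0.47 (standard error 0.18, 95% interval -0.0040 to 0.95, limma adjusted p = 0.244), and 0.27 without SUV-OE replicate 2. Depth was not a limit here, with at least 21899 reads on Cdk6 in each library. The antisense gene Gm17590 overlaps 368 of its exon bases, or 2.63%.

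Cdk4 (ENSMUSG00000006728, chr10:127063534-127067920, plus strand, mm10) was at 99.98 and 99.8 FPKM in control against 82.0 and 89.1 in SUV-OE. Both SUV-OE libraries lay below control, and the control libraries were nearly equal. In log2 terms the difference was -0.22 (standard error 0.13, 95% interval -0.55 to 0.11, limma adjusted p = 0.394). Under quantile normalization it was -0.012 and the groups overlapped, and by limma-voom it was -0.13. Of its exons, 641 bases, or 19.7%, overlap Tspan31 on the opposite strand, which had an FPKM of 23.6 and 21.3 in control against 23.2 and 25.8 in SUV-OE.

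The kinases were near parity in control and tilted toward Cdk6 in SUV-OE. The FPKM of Cdk6 was 0.994 and 0.930 times that of Cdk4 in control against 1.87 and 1.31 times in SUV-OE. As a share of the pair, Cdk6 made up 49.9% and 48.2% in control against 65.2% and 56.6% in SUV-OE, a difference of 11.9 percentage points (two-sided exact permutation p = 0.333, the smallest possible), or 7.60 points without SUV-OE replicate 2. In recovered reads, which are not divided by exon length, the share differed by 6.40 points. The summed FPKM of the pair was 199 and 193 in control against 236 and 206 in SUV-OE.

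Of the pocket protein genes, Rb1 was somewhat higher in SUV-OE and Rbl1 showed no separation. Rb1 (ENSMUSG00000022105, chr14:73183673-73325822, minus strand, mm10) encodes RB, the retinoblastoma tumor suppressor. Its FPKM was 7.07 and 6.53 in control against 8.82 and 8.06 in SUV-OE. Both SUV-OE libraries lay above control by more than the spread within either group. In log2 terms the difference was 0.27 (standard error 0.12, 95% interval -0.033 to 0.58), which did not pass the test (limma adjusted p = 0.279). The gene Lpar6 lies within Rb1 on the other strand and shares 408 bases with its exons, and its FPKM was 1.52 and 1.77 in control against 3.25 and 2.92 in SUV-OE (limma adjusted p = 0.119). Rcbtb2 shares another 488 bases, and its groups overlapped.

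Rbl1 (ENSMUSG00000027641, chr2:157145893-157204534, minus strand, mm10) encodes p107, a pocket protein that is itself made under E2F control in cycling cells. Its FPKM was 25.1 and 23.4 in control against 22.1 and 23.5 in SUV-OE. The groups overlapped, and the log2 fold change was -0.085 (standard error 0.11, 95% interval -0.38 to 0.21, limma adjusted p = 0.703), with the sign turned under quantile normalization (0.030) and by limma-voom (0.0089). With Rbl2, which encodes the third pocket protein p130 and had an FPKM of 10.4 and 8.71 in control against 11.5 and 9.33 in SUV-OE, the pocket protein sum was 42.6 and 38.6 in control against 42.4 and 40.9 in SUV-OE. Rbl1 made up 59.0% and 60.5% of this sum in control against 52.2% and 57.4% in SUV-OE. Rb1 made up 16.6% and 16.9% in control against 20.8% and 19.7% in SUV-OE. Both shares separated the groups, each with the smallest two-sided exact permutation p of 0.333.

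The 3 activator E2F genes did not share a direction. E2f1 (ENSMUSG00000027490, chr2:154559407-154569892, minus strand, mm10), the best studied activator, was at 40.5 and 29.0 FPKM in control against 25.0 and 27.7 in SUV-OE. Both SUV-OE libraries lay below both control libraries, with control replicate 4 near them and control replicate 3 apart. The mean was 34.7 ± 8.12 (SD, n = 2) in control and 26.4 ± 1.92 (SD, n = 2) in SUV-OE. The log2 fold change was -0.37 (standard error 0.19, 95% interval -0.86 to 0.13, limma adjusted p = 0.349), and under quantile normalization the groups overlapped. Without control replicate 3 this log2 difference was -0.13, and without control replicate 4 it was -0.60.

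E2f3 (ENSMUSG00000016477, chr13:29906575-29986063, minus strand, mm10) was at 8.31 and 7.29 FPKM in control against 9.98 and 8.96 in SUV-OE. Its SUV-OE libraries both lay above control, with a log2 fold change of 0.25 (standard error 0.13, 95% interval -0.081 to 0.58, limma adjusted p = 0.342). E2f2 (ENSMUSG00000018983, chr4:136172394-136196057, plus strand, mm10) was at 9.94 and 7.42 FPKM in control against 8.39 and 10.02 in SUV-OE. Its groups overlapped, and its difference of 0.085 on the log2 scale (standard error 0.18, limma adjusted p = 0.818) changed sign to -0.10 without control replicate 4 and to -0.031 without SUV-OE replicate 3.

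The summed FPKM of E2f1, E2f2 and E2f3 was 58.7 and 43.7 in control against 43.4 and 46.7 in SUV-OE, so the groups overlapped. Within this sum, E2f1 made up 68.9% and 66.3% in control against 57.6% and 59.3% in SUV-OE, a difference of -9.13 percentage points (two-sided exact permutation p = 0.333, the smallest possible). Against all of E2f1 to E2f8, the activators made up 34.99% and 32.1% in control against 32.8% and 35.5% in SUV-OE. These shares overlapped, with a difference of 0.613 percentage points that turned to -0.764 without SUV-OE replicate 3 and to -0.813 without control replicate 4 (two-sided exact permutation p = 0.667 with all 4).

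Promoters were searched for 4 spellings of the E2F site, TTTGGCGC, TTTCGCGC, TTTCCCGC and TTTGCCGC, on both strands, since the pathway's own genes can be E2F targets. The RefSeq windows (GRCm38.p6) ran from 250 bases before to 50 bases after each start, and 7 of the 10 genes had 1 or more. The spellings occurred in 0.514%, 0.323%, 1.07% and 0.441% of 32851 promoters, and any of them in 2.26%. A match stood in 1 window each of Rbl1, E2f2 and E2f3, and none stood in the windows of E2f1, Cdk4, Cdk6 and Ccnd3. The windows of E2f1 (chr2:154569377-154569676) and Cdk6 (chr5:3343643-3343942) did not hold the 5′ ends of the GENCODE genes. Other spellings were not searched, so the lack of a match does not show the lack of a site. The 60 bases before the start of Rbl1 (chr2:157204535-157204594, minus strand) and of E2f3 (chr13:29986064-29986123, minus strand) are shown because the match lies close to the start, with the match in capitals.
Rbl1: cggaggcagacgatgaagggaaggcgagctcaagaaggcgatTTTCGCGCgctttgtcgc
E2f3: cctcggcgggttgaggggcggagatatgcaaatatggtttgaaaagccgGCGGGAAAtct
In Rbl1 the match TTTCGCGC began 18 bases before the start, and in E2f3 the capitals, which read TTTCCCGC on the other strand, began 11 bases before it. In E2f2 the match TTTGGCGC lay within the 50 bases after the start. A match to letters is a description of the window and not a measured site. Between groups, these 3 genes differed in pattern, since Rbl1 and E2f2 overlapped between groups and E2f3 did not.

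The other genes of the pathway were taken from 9 lists by role. Of their 113 genes, 0 had a limma adjusted p under 0.05, and 34 had an unadjusted p under 0.05, where 20.7% of all tested genes did. By limma-voom, 4 were called, with Cdkn1b and Foxo1 higher and Mnat1 and Tk1 lower, where 7.03% of all genes were called. The lists are therefore described by direction and level. Among the other E2F genes and their DP partners, 6 of 7 were lower (median log2 fold change -0.25), and the groups were separate below for 4, where 28.4% of all tested genes were, and above for 1. The median was -0.048 without control replicate 3 and -0.15 under quantile normalization. E2f6, a repressor that does not need pocket proteins, had an FPKM of 30.6 and 29.5 in control against 23.98 and 24.6 in SUV-OE (log2 fold change -0.30, limma adjusted p = 0.223). Tfdp2, a DP partner, had 3.80 and 3.03 in control against 2.88 and 2.29 in SUV-OE. Of 7 genes of p130 and the DREAM and MuvB complexes, 4 were lower and separate and 3 were higher with overlap. Mybl2, a MuvB partner that activates late cell cycle genes, had 31.1 and 19.8 in control against 16.0 and 17.3 in SUV-OE (log2 fold change -0.55, limma adjusted p = 0.269), and Lin54, the DNA-binding MuvB subunit, had 6.62 and 6.19 in control against 5.21 and 4.84 in SUV-OE.

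The inhibitors of cyclin-dependent kinases differed in both directions, with 4 of 7 genes higher and 3 lower. Cdkn1b, the gene of the CIP/KIP inhibitor p27, had an FPKM of 12.7 and 13.8 in control against 17.9 and 20.5 in SUV-OE (log2 fold change 0.50, limma adjusted p = 0.139). Cdkn2a, which encodes p16INK4A and p19ARF, had 7.90 and 5.87 in control against 4.71 and 3.70 in SUV-OE (log2 fold change -0.59, limma adjusted p = 0.187). Both genes had groups that did not overlap, and neither passed the limma test. Cdkn1c, which encodes the CDK inhibitor p57, was at 1.99 and 1.89 FPKM in control against 1.49 and 1.21 in SUV-OE, below control in both libraries (log2 fold change -0.32, limma adjusted p = 0.306). Cdkn1a, which encodes p21, was at 11.8 and 12.1 FPKM in control against 7.68 and 15.03 in SUV-OE, so its groups overlapped (log2 fold change -0.14, limma adjusted p = 0.830). The INK4 genes Cdkn2b and Cdkn2c overlapped between groups, at 0.590 to 0.728 FPKM and at 4.50 to 5.22 FPKM, while Cdkn2d, another INK4 gene, was at 30.7 and 29.4 FPKM in control against 31.5 and 35.3 in SUV-OE (log2 fold change 0.14, limma adjusted p = 0.538).

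Cyclin E, CDK2 and the genes that activate these kinases lay below control in mean level in 8 of 8 cases (median log2 fold change -0.30), with separate groups for 6, beside 28.4% of all tested genes. The median was -0.17 without SUV-OE replicate 2 and -0.19 without control replicate 4. Mnat1, a subunit of the CDK-activating kinase, had an FPKM of 7.92 and 8.82 in control against 4.44 and 5.24 in SUV-OE (log2 fold change -0.68, limma adjusted p = 0.0973). Ccne1, the cyclin E1 gene, had a log2 fold change of -0.71 (limma adjusted p = 0.0692). Ccne2, the cyclin E2 gene, had 12.49 and 17.18 FPKM in control against 10.34 and 12.36 in SUV-OE (log2 fold change -0.35, limma adjusted p = 0.371). Its groups were barely separate. Ccne1 and Ccne2 thus lay on the other side of control from Ccnd2 and Ccnd1. Of these genes only Ccnd2 passed the limma test, and the difference between cyclin types was not tested.

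Of 14 genes of RB co-repressors, 6 were higher and 8 were lower, with a median of -0.12 that came to 0.0038 under quantile normalization. Rbbp7, a histone-binding subunit of histone deacetylase complexes, had an FPKM of 96.6 and 96.1 in control against 72.9 and 75.2 in SUV-OE, and Arid4a, an RB-binding protein gene, had 13.0 and 14.7 in control against 18.1 and 18.7 in SUV-OE. Of 15 genes listed as inputs to D-type cyclin expression, without regard to whether each raises or lowers it, 11 were higher. The count therefore gives no direction of input. The median of the list was 0.075, and it was 0.24 without control replicate 3 and -0.066 without control replicate 4. Foxo1 from this list, a transcription factor gene held down by AKT signaling, had 0.320 and 0.404 in control against 0.937 and 1.29 in SUV-OE (log2 fold change 0.63, limma adjusted p = 0.164). Flt3, a receptor kinase gene, had 10.3 and 9.08 in control against 6.20 and 4.18 in SUV-OE (log2 fold change -0.81, limma adjusted p = 0.133). Of 9 genes that bear on the breakdown of D-type cyclins, in either direction, the groups were separate for 1. Among all tested genes, 25.4% were separate above control and 28.4% below. The separate gene was Cul1, a ubiquitin ligase scaffold gene, at 40.4 and 39.8 in control against 35.4 and 33.8 in SUV-OE.

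Most genes downstream of E2F had lower means in SUV-OE, and none passed the limma test. All 30 genes of the E2F target list, most of them for DNA replication, had a lower mean in SUV-OE, and the groups were separate for 27, where 28.4% of all tested genes were separate in this direction (median log2 fold change -0.43, range -0.78 to -0.10). Tk1, for thymidine kinase, had an FPKM of 21.9 and 22.2 in control against 12.8 and 12.1 in SUV-OE (log2 fold change -0.78, limma adjusted p = 0.0576). Rrm2, for a ribonucleotide reductase subunit, had 95.8 and 77.2 in control against 50.6 and 53.9 in SUV-OE (log2 fold change -0.71, limma adjusted p = 0.112). Of 16 genes of the mitotic phase, 12 were lower and 4 higher, with a median of -0.26 that was -0.13 without control replicate 3. Aurka, a spindle kinase gene, had 31.6 and 27.7 in control against 19.2 and 21.5 in SUV-OE, and Plk1, another mitotic kinase gene, had 24.2 and 14.6 in control against 14.6 and 11.996 in SUV-OE. The activators stood beside their targets with E2f1 lower, E2f2 overlapping and E2f3 higher.

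**Figure D4:**
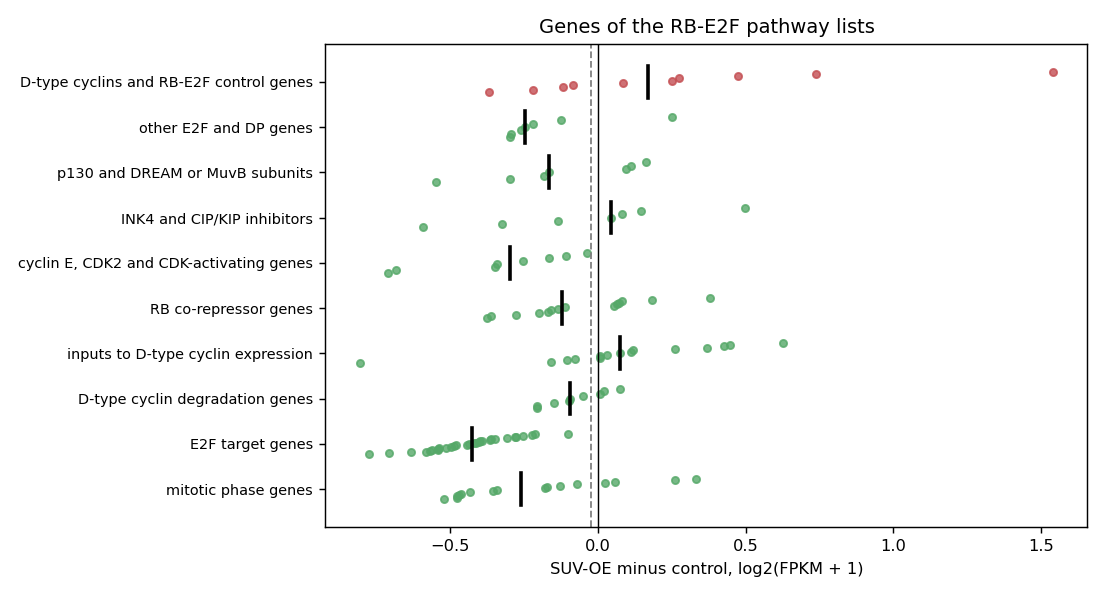
Log2 fold change (SUV-OE minus control, log2(FPKM + 1)) of each gene in the 10 chosen genes (red) and in 9 other lists of the pathway (green), with a bar at each list's median and a dashed line at the median of all tested genes (-0.022). All 30 E2F target genes lie below 0, with a median of -0.43, while the 10 chosen genes spread from -0.37 to 1.54.

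Markers of other cell types were also higher in the libraries with more Ccnd2 and Ccnd1. Of 10 late neutrophil markers, 10 had both SUV-OE libraries above control, as did 25.4% of all tested genes, and their summed FPKM was 754 and 2392 in control against 6658 and 8106 in SUV-OE. Ltf, the lactoferrin gene, was called among them (19.9 and 40.3 FPKM in control, 212 and 241 in SUV-OE, limma adjusted p = 0.0434). Of 9 tested B-lineage markers, 8 had both SUV-OE libraries above control, and the sum over the list of 10 was 18.6 and 27.8 in control against 38.5 and 88.5 in SUV-OE. Most of the control sums came from Cd79b, at 17.4 and 25.0 FPKM in control against 17.2 and 23.4 in SUV-OE, with overlapping groups. Vpreb1, for a part of the pre-B cell receptor, was at 0.277 and 0.745 FPKM in control against 6.23 and 19.3 in SUV-OE, and Igll1, for another part, was at 0.166 and 0.411 against 4.11 and 15.3. Ms4a1, a marker of mature B cells, was at 0.0287 FPKM or less in all 4 libraries. Of 9 macrophage markers, 7 had both SUV-OE libraries above control and 1 below, with sums of 135 and 163 in control against 179 and 176 in SUV-OE.

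The remaining lists overlapped in sum or rested on 1 gene. The erythroid markers summed to 35.3 and 165 in control against 118 and 89.3 in SUV-OE, with separate groups above for 4 of 10 and below for 1, against 25.4% and 28.4% of all tested genes. The T and NK cell markers summed to 75.6 and 115 in control against 78.5 and 84.9 in SUV-OE, of which Nkg7 made up most, 3 of 9 passed the filter, and Cd8a had no more than 0.0155 FPKM in any library. The 10 endothelial and stromal markers summed to 17.8 and 24.8 in control against 73.0 and 66.1 in SUV-OE, nearly all of it from Pecam1, which blood cells also express. Pecam1 alone of this list passed the filter, and it rose from 16.7 and 23.3 to 70.3 and 64.1 FPKM (limma adjusted p = 0.0405).

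The SUV-OE libraries differed more in the B-lineage sum than in Ccnd2. The B-lineage sum was 38.5 in SUV-OE replicate 2 and 88.5 in replicate 3, while Ccnd2 was 4.62 and 4.45 FPKM in the same libraries and Ccnd1 was 1.78 and 1.52. The late neutrophil sum was 754 in control replicate 3 and 2392 in control replicate 4, where Ccnd2 was 0.792 and 1.02 FPKM and Ccnd1 was 0.677 and 0.503. The part of these markers in the values of Ccnd2, Ccnd1 and the other genes was not tested. In bulk samples, fewer cells of a type and less RNA per cell cannot be told apart.

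**Figure D5:**
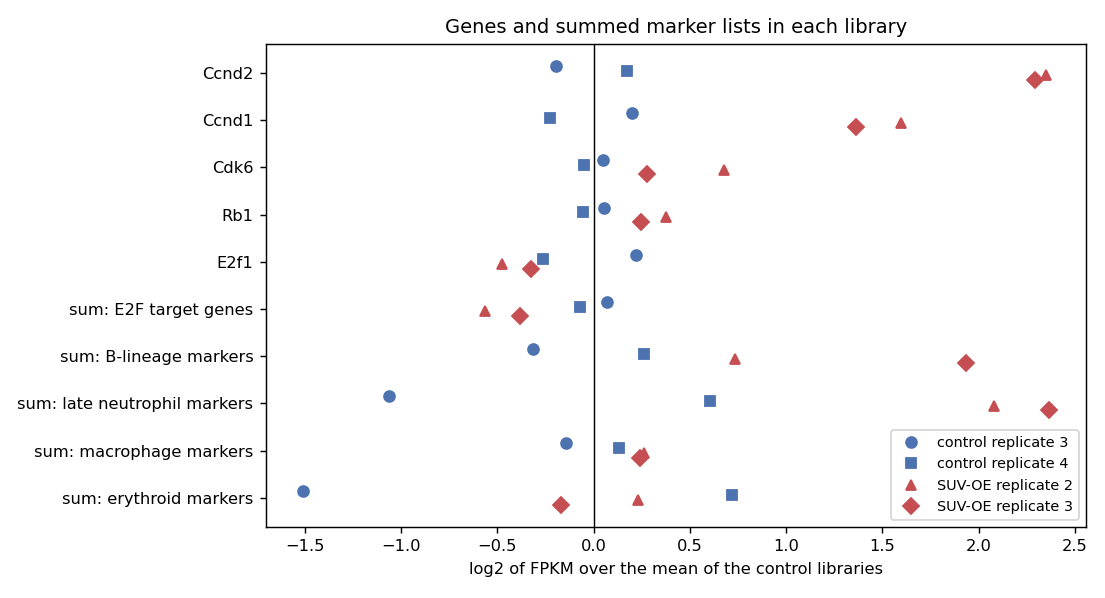
Log2 of the FPKM of 5 genes and of the summed FPKM of 5 lists in each library over the mean of the control libraries. Ccnd2 lies at 2.35 and 2.30 in SUV-OE, the B-lineage sum at 0.73 and 1.93, and the late neutrophil sum at 2.08 and 2.37, with the control libraries at -1.06 and 0.60 for the last. Most of the B-lineage sum in control comes from Cd79b, whose groups overlap.

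The nearest profile to each gene was looked up among 122 genes of the pathway lists, as the smallest root mean square distance between centred log2(FPKM + 1) values over the 4 libraries. With 4 libraries and groups that separate for many genes, such distances describe these values only. Ccnd2 had no close neighbour, its nearest being Ccnd1 at a distance of 0.420. The nearest to Ccnd1 and to Cdk6 was Kit, at 0.157 and 0.0860, the gene of the receptor used to enrich the cells, with an FPKM of 20.4 and 19.2 in control against 28.6 and 25.4 in SUV-OE. Rb1 and E2f3 were each the nearest of the other, at 0.0280. Rbl1 was nearest to Cdk2 at 0.0151, Cdk4 to Hdac1 at 0.0335, E2f1 to Mcm2 at 0.0276, Ccnd3 to Ddb1 at 0.0517 and E2f2 to Usp2 at 0.0934.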

How the data were processed

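Total RNA of c-Kit+ cells was extracted with TRIzol, and libraries were made with the TruSeq RNA v2 kit. The authors aligned reads to mm10 with TopHat2, after CASAVA 1.8 per the submitters' processing notes, and deposited 1 FPKM value per gene and library, which the study's methods credit to Cufflinks. The annotation release is not given in the sources used here.

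The deposited unit was FPKM, so log2(FPKM + 1) was compared with limma 3.58.1 in R 4.3.3, with an intensity trend, for genes with a mean FPKM of 0.5 or more. Genes were called at a Benjamini-Hochberg adjusted p under 0.05, and DEGs also needed an absolute log2 fold change of 1. Reads were recovered from FPKM steps at GENCODE M21 exon lengths, where 78.5% of genes gave whole reads in all 4 libraries within 0.01, and were used for depth, intervals and limma-voom (mean of 10 reads or more). For E2f3 another exon length was needed. The FPKM of 3 reads on 1 kb was 0.154 to 0.178. The fits were tested on simulated data. Alternatives were a pseudocount of 0.1, no filter, a mean FPKM of 1, quantile and median-of-ratios scaling, no trend, an adjusted p under 0.1, no fold change threshold, and each library left out.

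The 10 genes, the lists and the tests were chosen with earlier results of these data known. Named genes were the 10, Suv39h1, called list genes, up to 2 genes per list with the largest fold change and separate groups, and nearest profiles. For marker lists only some of these are named. Cdkn1a, Cdkn1c, Cdkn2b, Cdkn2c, Cdkn2d, Ccne2, Ms4a1, Cd79b, Elane, Prtn3, Nkg7, Cd8a, Rbl2 and the overlapping genes were named after their values were seen. The value of 1 marker gene is not reported here.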

Additional observations from a re-analysis of the deposited data

How the results depend on the processing

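Of 110 alternative values for the 10 genes, 99 kept their direction and side of the threshold, 5 lost the call, 1 gained it and 5 turned sign. For genes not called in the main fit, staying on that side was fixed in fits that called no gene of the whole table. The 5 lost calls were all of Ccnd2 (limma adjusted p from 0.107 to 0.228), and the gain was Ccnd1 by limma-voom (1.57). Turned signs were Ccnd3 at 0.064 without control replicate 3 (-0.30 to 0.064 with a library left out), Rbl1 at 0.030 under quantile normalization and 0.0089 by limma-voom, and E2f2 at -0.10 without control replicate 4 and -0.031 without SUV-OE replicate 3 (-0.10 to 0.27 with a library left out). The cause was not tested. Among the 10 genes, 1 was called by limma, 0 with no filter on low values, 2 (Ccnd2 and Ccnd1) by limma-voom and 0 to 0 with a library left out. DEGs over all genes numbered 168, against 0 with no filter (4177 genes at an unadjusted p under 0.05), 767 by limma-voom, 342 at an adjusted p under 0.1, and 0 to 0 with a library left out (1146 to 3895 genes at an unadjusted p under 0.05). These last fits had 1 residual degree of freedom and assume that the lone library varies like the other group.

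Median log2 fold changes came to 0.0038 (quantile) and -0.032 (limma-voom) for RB co-repressors, to 0.0077 and 0.0011 for D-type cyclin degradation genes (-0.15 to 0.082 with a library left out), and to -0.32 (quantile) for E2F targets. Without control replicate 3 the median was 0.24 for inputs to D-type cyclin expression (-0.066 to 0.24 with a library left out) and -0.13 for mitotic genes (-0.31 to -0.13). In recovered reads, which are not divided by exon length, the Cdk6 share differed by 6.40 percentage points. The share of E2f1 to E2f3 differed by -0.764 without SUV-OE replicate 3 and -0.813 without control replicate 4 (-0.813 to 2.04 with a library left out). No paired analysis was possible because replicate 3 is the sole number found in both groups.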
